A study of Mus musculus with 4 samples.

Results

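Regulatory T cells of the mouse liver were sought by a rule on marker genes, which 84 of 9300 cells met in 4 droplet single-cell libraries of liver mononuclear cells. These cells, called members, were chosen by their measured counts, and the name is not established for the 40 of them in which no *Foxp3* was seen. A cell was a member when it held at least 1 UMI of *Cd3d*, *Cd3e* or *Cd3g* together, no UMI of *Cd8a* or *Cd8b1*, at most 2 UMIs of the B cell genes *Cd79a*, *Cd79b* and *Ms4a1*, at most 10% mitochondrial UMIs, and either a *Foxp3* UMI or at least 1 UMI each of *Ikzf2* and *Tnfrsf4*. A UMI is a molecular tag, so that reads with the same tag in a cell count as 1 RNA molecule. All 4 libraries came from C57BL/6 mice aged 8 to 10 weeks, with no transgene or deletion named. Naïve mice received no concanavalin A (ConA), and the other 3 groups received ConA, a lectin from jack beans that activates T cells and inflames the liver, and then vehicle (ConA+Veh), TCDD (ConA+TCDD) or FICZ (ConA+FICZ). Livers were taken 24 hours after ConA, and the cells were enriched on a Percoll gradient without a sort for T cells. Each group had 1 library, and neither the number of mice behind a library nor the dose of FICZ is given in the sources used here, so no difference between groups has a replicate check. The members numbered 7 in Naïve, 26 in ConA+Veh, 23 in ConA+TCDD and 28 in ConA+FICZ, among 2086, 2779, 1880 and 2555 cells, and 4 values in a row follow this order of libraries throughout. Their summed depth was 37792, 283008, 162522 and 291520 UMIs, and the median member held 2369, 5822, 3437 and 8868.5 UMIs.

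Regulatory T cells are CD4 T cells that restrain other immune cells. The transcription factor Foxp3 sets their program, Ikzf2 (Helios) is a partner factor found in many of them, Tnfrsf4 (OX40) is a costimulatory receptor, and Il2ra (CD25) is the high-affinity chain of the IL-2 receptor through which they draw IL-2 made by other T cells. In tissues, some of them carry receptors for alarm signals such as Il1rl1 (ST2) and release the growth factor amphiregulin, encoded by *Areg*. TCDD and FICZ are ligands of the aryl hydrocarbon receptor (AhR), a transcription factor that ligands move into the nucleus, where it switches on genes such as *Cyp1a1*.

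Over all 4 libraries together, 44 of the 84 members held a *Foxp3* UMI and 40 entered through *Ikzf2* and *Tnfrsf4* alone. Of the 44, 25 also met the *Ikzf2* and *Tnfrsf4* clause, 17 held a single *Foxp3* UMI and 27 held 2 or more. The genes that chose the members are given as a description. The summed level of *Foxp3* was 121 CPM (UMIs scaled to a total of 1000000; exact 95% Poisson interval 98.0 to 148) in all members. *Ikzf2* stood at 221 CPM (189 to 256) in the members and at 7.55 CPM in the other CD4 T cells described below. *Tnfrsf4* stood at 639 CPM (584 to 698) in the members and at 351 CPM in the other CD4 T cells, 152 of 291 of which held a UMI of it. *Il2ra*, a marker that the rule did not use, had UMIs in 48 of 84 members, 31 of the 44 with *Foxp3* and 17 of the 40 without. *Cd4*, which the rule did not ask for, had UMIs in 35 of 84 members, 19 with and 16 without a *Foxp3* UMI. *Foxp3*, the defining gene, was thus seen in only part of the members. The 40 without it are called by the rule and not as regulatory T cells, since the defining gene was not seen in them. Over other CD4 T cells, 0 of 3126 genes rose in the 40 by edgeR (122 genes at an unadjusted p under 0.05 in either direction). That count cannot tell what these cells are, because the 35 members with a *Cd4* UMI, 19 of them with *Foxp3*, also gave 0 rises. *Cd4* did not set the 40 apart, with UMIs in 16 of them against 19 of the 44 with *Foxp3*. By library, NK cell genes summed to 224, 2049, 497 and 545 CPM in the 40, against 673, 248, 325 and 124 CPM in the other CD4 T cells. Naïve thus went the other way, and *Gzma* made 1055 CPM of the ConA+Veh sum, most of it from a single cell, as given below. In the same 40 cells, 15 further regulatory T cell genes summed to 1443, 1778, 788 and 1771 CPM, against 820, 1010, 975 and 1064 CPM in the other CD4 T cells. That sum was lower in ConA+TCDD and higher in the other 3 libraries. Members with and without a *Foxp3* UMI are given apart for the main results.

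Near the limits of the rule, 7 members held exactly 1 UMI each of *Ikzf2* and *Tnfrsf4*, while 168 cells of the same T cell gate held *Ikzf2* without *Tnfrsf4* or *Foxp3* and 290 held *Tnfrsf4* without *Ikzf2* or *Foxp3*. Single UMIs of the B cell genes, or 2 of them, were present in 5 members, and 5 cells that met every other condition had 3 or more. A mitochondrial share of 8% to 10% was found in 4 members, and 8 cells that met every other condition lay above 10%, 4 of them at 10% to 12%. CD8 genes kept out 43 cells, 13 of them by a single UMI, and a missing *Cd3* UMI kept out 8, against 4 members with just 1 *Cd3* UMI. In all, 67 cells of the series held a *Foxp3* UMI and 23 of these were outside the rule.

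The ConA+Veh members, and the other CD4 T cells of ConA+FICZ, stood apart in genes of other cell types. With 10 genes that mark myeloid, natural killer (NK) and gamma delta T cells (*Tyrobp*, *Fcer1g*, *C1qa*, *C1qb*, *Lyz2*, *Ncr1*, *Klre1*, *Trdc*, *S100a8* and *S100a9*, a set chosen after the values had been seen), 9 of 26 ConA+Veh members held more than 1 UMI, against 1 of 7 in Naïve, 0 of 23 in ConA+TCDD and 1 of 28 in ConA+FICZ. Of these 9 cells, 3 held a *Foxp3* UMI and 6 did not. A single *Foxp3* member held 149 of the 245 UMIs of these genes in the ConA+Veh members with *Foxp3*. Among the other CD4 T cells, 4 of 76 in Naïve, 5 of 84 in ConA+Veh, 2 of 67 in ConA+TCDD and 5 of 64 in ConA+FICZ exceeded 1 UMI. The members left when these cells were dropped are called members with at most 1 UMI of other cell types, and values are given without the dropped cells where they matter. Cell barcodes shared between libraries numbered 15 for Naïve and ConA+Veh and 4 to 8 for the other pairs, none of them shared by members of both, and 1 member's barcode occurred in another library.

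For the whole marker lists, the 10 NK and NKT cell genes summed to 453 CPM in ConA+Veh members with *Foxp3* and to 2049 CPM in those without, in which *Gzma* was the most abundant at 1055 CPM. The same list summed to 497 CPM in ConA+TCDD and to 545 CPM in ConA+FICZ members without *Foxp3*, and to 17.9 and 25.1 CPM in those with it. Of the 11 myeloid genes, 9 had UMIs in ConA+Veh members with *Foxp3* and summed to 3086 CPM, led by *Fcer1g* at 1120 CPM, against 17.9 CPM in ConA+TCDD, 12.5 CPM in ConA+FICZ and 0 in Naïve. The 10 B and plasma cell genes summed to 5648 CPM in the same ConA+Veh cells, of which *Cd74* made 5255 CPM, against 286 CPM in ConA+TCDD and 232 CPM in ConA+FICZ, where *Ighm* was the most abundant at 161 and 157 CPM. In Naïve it summed to 909.5 CPM with and 994 CPM without *Foxp3*. The 6 gamma delta T cell genes were at 0 in all ConA+TCDD and ConA+FICZ members and at 171 CPM in the ConA+Veh members without *Foxp3*, led by *Trdc* at 75.3 CPM. The 9 genes of type 2 innate lymphoid and mast cells were at 0 in the members of Naïve, ConA+TCDD and ConA+FICZ. The 9 genes of hepatocytes, endothelium and red cells summed to between 26.5 and 105 CPM over the libraries. In the other CD4 T cells, described below, the myeloid list summed to 58.1, 111, 103 and 2153 CPM, led by *S100a9* at 1137 CPM in ConA+FICZ, the NK list to 673, 248, 325 and 124 CPM, and the B and plasma cell list to 214, 279, 232 and 154 CPM.

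**Figure D1:**
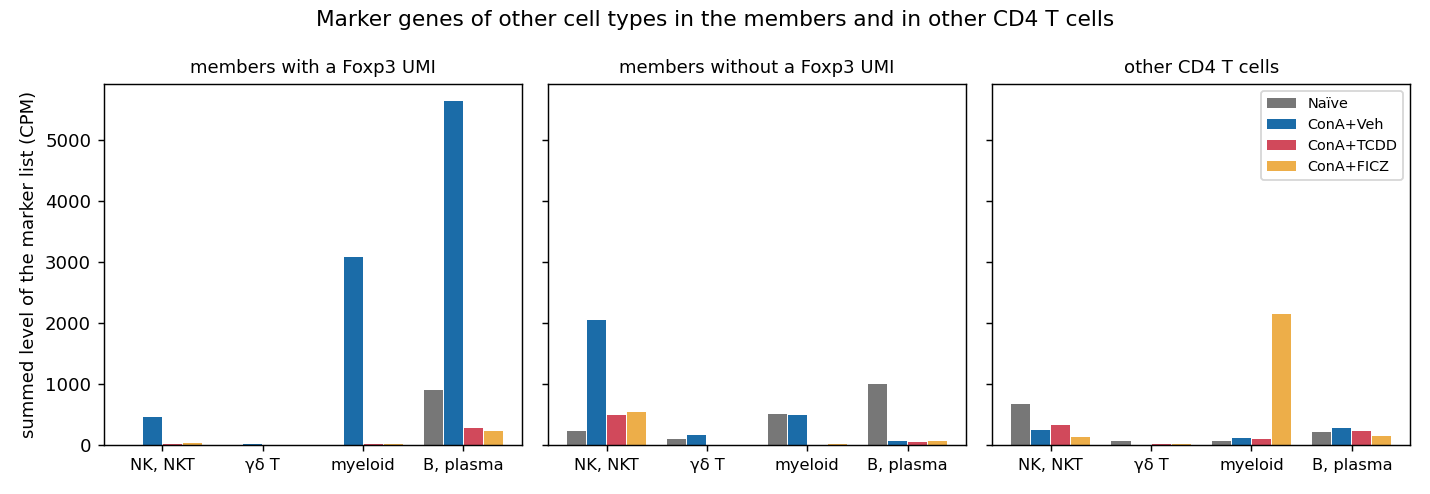
Summed CPM (vertical axis) of 4 marker lists of other cell types, by library (bar colour), in members with a Foxp3 UMI, members without one and other CD4 T cells; 1 bar is 1 library and carries no error bar. Among the members, the ConA+Veh bars for myeloid and B cell genes stand highest in those with a Foxp3 UMI (3086 and 5648 CPM) and the NK bar in those without (2049 CPM).

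The first question was how frequent the members were in each condition. They made up 0.336% of all cells in Naïve (exact binomial 95% interval 0.135% to 0.690%), 0.936% in ConA+Veh (0.612% to 1.37%), 1.22% in ConA+TCDD (0.777% to 1.83%) and 1.10% in ConA+FICZ (0.729% to 1.58%). The Naïve share was the lowest and the intervals of the 3 ConA libraries overlapped. Relative to Naïve, the share in ConA+Veh was higher by 1.48 on the log2 scale (exact conditional interval 0.24 to 2.93). Relative to ConA+Veh, it was higher by 0.39 in ConA+TCDD (-0.49 to 1.25) and by 0.23 in ConA+FICZ (-0.60 to 1.06), and both intervals include 0. These intervals cover counting error only, since every group had 1 library, and the smallest share a count of 3 cells can show was 0.108% to 0.160%. Of the cells that passed the T cell gate, that is every condition but the regulatory clause, the members were 2.08% in Naïve, 6.07% in ConA+Veh, 5.65% in ConA+TCDD and 9.09% in ConA+FICZ, so that ConA+TCDD lay on the other side of ConA+Veh than among all cells (log2 ratio -0.10, -0.98 to 0.76).

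The members with a *Foxp3* UMI numbered 3 in Naïve (0.144% of cells), 9 in ConA+Veh (0.324%), 15 in ConA+TCDD (0.798%) and 17 in ConA+FICZ (0.665%). ConA+TCDD exceeded ConA+Veh by a log2 ratio of 1.30 (0.01 to 2.67), while the ratio for ConA+FICZ was 1.04 (-0.21 to 2.39). Of the cells of the T cell gate, the *Foxp3* members were 0.890%, 2.10%, 3.69% and 5.52%, and the interval that excluded 0 was then that of ConA+FICZ (1.39, 0.15 to 2.74) and not that of ConA+TCDD (0.81, -0.48 to 2.18). The members without a *Foxp3* UMI numbered 4, 17, 8 and 11 and were lower in ConA+TCDD than in ConA+Veh by a log2 ratio of -0.52 (-1.94 to 0.77). Among members with at most 1 UMI of other cell types, the shares were 0.288% in Naïve, 0.612% in ConA+Veh, 1.22% in ConA+TCDD and 1.06% in ConA+FICZ. The lower limit of the log2 ratio was then 0.03 for ConA+TCDD over ConA+Veh, and the ratio of ConA+Veh over Naïve was 1.09 (-0.32 to 2.72). This restriction used genes chosen after the values had been seen, and it dropped 9 of 26 ConA+Veh but 0 of 23 ConA+TCDD members. All cells stayed in the denominator, so the restriction itself moved both ratios, and no conclusion is drawn from them.

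Depth differed between the libraries, since the median cell held 2161 UMIs in Naïve, 3984 in ConA+Veh, 3761.5 in ConA+TCDD and 3147 in ConA+FICZ. After every cell was thinned to 1000 UMIs, which left out 168, 298, 219 and 344 shallower cells, 1, 11, 10 and 9 cells met the rule, or 0.0521%, 0.443%, 0.602% and 0.407%. ConA+Veh then exceeded Naïve by 3.09 on the log2 scale (0.31 to 8.52), resting on 1 Naïve cell, while ConA+TCDD and ConA+FICZ differed from ConA+Veh by 0.44 (-0.95 to 1.82) and -0.12 (-1.57 to 1.29). The members with *Foxp3* were 1, 6, 7 and 4 of the thinned cells, so that ConA+TCDD differed from ConA+Veh by 0.80 (-0.996 to 2.65) on that scale, and ConA+FICZ turned from above ConA+Veh to -0.42 (-2.69 to 1.66). Thinning to 2000 UMIs left out 914, 735, 538 and 856 cells, among them 2 of 3, 1 of 9, 5 of 15 and 1 of 17 *Foxp3* members. The *Foxp3* members were then 0, 2, 7 and 8, and the ratios to the 2 ConA+Veh cells were 2.41 (0.02 to 5.72) for ConA+TCDD and 2.27 (-0.06 to 5.54) for ConA+FICZ, so that neither the size of these ratios nor the direction for ConA+FICZ held across depths. As a measure of free RNA, a *Foxp3* UMI was found in 3 of 1059 Naïve B cells (0.283%) and in 1 of 741 in ConA+FICZ (0.135%). It was found in 0 of 711 ConA+Veh B cells, where 3 counts would make 0.422% and the exact upper limit was 0.517%. In ConA+TCDD it was found in 0 of 320, where 3 counts would make 0.938% and the exact upper limit was 1.15%. The median depths of the B cells were 2135, 4280, 3935.5 and 3805 UMIs in the usual order of libraries. Of the Naïve cells that passed the T cell gate, 0.890% (3 of 337, exact interval 0.184% to 2.58%) were *Foxp3* members, and this interval overlaps that of the Naïve B cells (0.0585% to 0.826%). Of these 3 members, 2 held 2 or more *Foxp3* UMIs. No B cell of any library held both *Ikzf2* and *Tnfrsf4*.

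**Figure D2:**
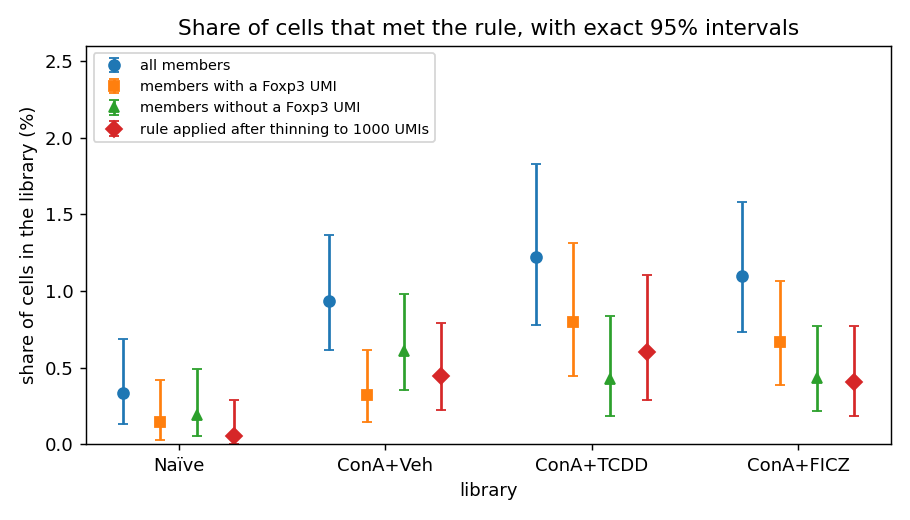
Share of all cells (vertical axis, percent) that met the rule in each library (horizontal axis), for all members, members with and without a Foxp3 UMI, and after thinning each cell to 1000 UMIs; points are shares and bars exact 95% binomial intervals that cover counting error only. The Naïve share of all members is the lowest at 0.336%, and the shares of the 3 ConA libraries, 0.936% to 1.22%, have overlapping intervals.

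The second question was how the members differed from other CD4 T cells of the same livers, that is cells of the same gate with a *Cd4* UMI and without the regulatory clause (76, 84, 67 and 64 cells). Among others, *Areg*, *S100a6*, *Ctla4*, *Il2ra* and *Izumo1r* stood higher in the members of each of the 4 libraries. UMIs were summed per library and class and compared by edgeR's quasi-likelihood test with the library as a block, so that the 4 libraries, each of another condition, served as replicates. Of 3604 genes tested, 19 rose (0.527%) and 2 fell (0.0555%) at an adjusted p under 0.05, all 19 being higher in 4 of 4 libraries and 14 of them without overlap between the classes. The median log2 change of all genes tested was -0.03. The other CD4 T cells were deeper, with a median of 9250 UMIs against 5475.5 in the members, and *Cd4* itself and the genes of the rule are given no test. The calls depended on which libraries entered: of the 21 genes, 21 were called without Naïve, 5 without ConA+Veh, 11 without ConA+TCDD and 5 without ConA+FICZ, and *Areg*, *S100a6* and *Trbv13-1* were called in each of these 4 fits. The calls also depended on the cells compared. Against all other cells of the T cell gate, with or without a *Cd4* UMI, 11 of the 21 genes were no longer called by edgeR, among them *S100a6* (log2 change 0.67, adjusted p = 0.38), *Lgals3* (0.38, 0.84), *Rtp4* (0.35, 0.84), *Pglyrp1* (0.40, 0.79) and *Ifngr1* (0.39, 0.64). The 10 that were still called included *Areg* (5.18), *Izumo1r* (1.90), *Ctla4* (1.15), *Capg* (1.32) and *Il2ra* (0.92). The comparison cells all held a *Cd4* UMI, as did 35 of the 84 members. With those members alone, 0 genes rose and 2 fell by edgeR, with 167 at an unadjusted p under 0.05, *S100a6* having a log2 change of 2.64 (adjusted p = 0.30), *Ctla4* 0.97 (0.43), *Capg* 1.72 (0.45) and *Il2ra* 0.38 (0.90).

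*Areg* showed the largest rise. Its summed level in the members was 52.9 CPM in Naïve, 141 CPM in ConA+Veh, 215 CPM in ConA+TCDD and 172 CPM in ConA+FICZ, against 3.06, 16.5, 4.15 and 3.19 CPM in the other CD4 T cells. Every member value lay above every value of the other cells, but the Naïve value was 2 UMIs, fewer than the 3 counts used as a floor, and the ConA+Veh value was 1 cell. The log2 change was 4.35 ± 0.44 (SE, n = 4 libraries; edgeR adjusted p = 0.00021). The transcript sat in few cells, with a UMI in 13 of 84 members, 9 of which held *Foxp3*, against 9 of 291 other CD4 T cells. Members with *Foxp3* were at 0, 477, 625 and 194 CPM, and those without at 64.1, 0, 0 and 144 CPM. Neither kind alone was thus higher than the other CD4 T cells in every library. All 40 UMIs of ConA+Veh came from that 1 member, whereas the 35 UMIs of ConA+TCDD and the 50 of ConA+FICZ came from 5 members each. *Il1rl1*, the IL-33 receptor that marks tissue regulatory T cells, had UMIs in 8 members, all of them with *Foxp3* (2 in ConA+Veh, 5 in ConA+TCDD, 1 in ConA+FICZ and 0 in Naïve), and 3 of these also held *Areg*. It was at 0 in the members without *Foxp3*, where 3 counts would make 6.40 CPM.

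The promoters of the 19 genes that rose were read from RefSeq (GRCm38.p6), which matched 16 of them, as the 250 bases before the gene start. *Areg* is shown as the gene with the largest rise, and *Ifngr1*, the ligand-binding chain of the interferon gamma receptor, and *Lgals3* (galectin-3) were picked after the matches were known, as promoters that hold the AhR core. Capitals mark TGACGTC (the core of a cyclic AMP response element) in *Areg* and GCGTG (the AhR core) in the others, on either strand. The windows lie at chr5:91139349-91139598 for *Areg*, chr10:19591699-19591948 for *Ifngr1* and chr14:47373610-47373859 for *Lgals3*, all on the plus strand.
Areg: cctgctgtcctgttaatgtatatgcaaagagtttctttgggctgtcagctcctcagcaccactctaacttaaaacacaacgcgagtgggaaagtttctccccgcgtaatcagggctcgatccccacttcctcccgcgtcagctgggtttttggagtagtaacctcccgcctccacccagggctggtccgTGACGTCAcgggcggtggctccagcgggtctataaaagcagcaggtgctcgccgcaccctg
Ifngr1: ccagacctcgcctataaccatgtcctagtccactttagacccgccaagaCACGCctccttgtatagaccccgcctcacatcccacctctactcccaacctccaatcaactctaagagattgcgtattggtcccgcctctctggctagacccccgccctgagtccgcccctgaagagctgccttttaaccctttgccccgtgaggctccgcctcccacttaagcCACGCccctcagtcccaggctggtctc
Lgals3: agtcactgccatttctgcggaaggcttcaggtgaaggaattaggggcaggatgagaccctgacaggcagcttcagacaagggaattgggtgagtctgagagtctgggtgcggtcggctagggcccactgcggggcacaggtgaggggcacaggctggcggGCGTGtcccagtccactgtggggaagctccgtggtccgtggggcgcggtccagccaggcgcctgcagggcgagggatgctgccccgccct

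In the *Areg* promoter, TGACGTC matched on both strands in overlapping letters, ending 54 and 53 bases before the start. This motif was added, and its letters shortened, after the sequence had been read, and it was present in 1 of 16 promoters (6.25%) against 2.88% of 27025 promoters of the same length. GCGTG was present in 3 of 16 (18.8%; *Ass1*, *Ifngr1* and *Lgals3*) against 28.2% of all, TTCNNNGAA (a STAT motif) in 0 of 16 against 7.18%, and TGTTTAC (a forkhead motif) in 0 of 16 against 3.09%. A match is a run of letters and not a bound site, and *Rtp4*, *Ifi27l2a* and *S100a10* were without a window.

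Of 15 genes of the regulatory T cell core that the rule did not use, 7 had enough UMIs to be tested, and 4 of the 7 rose while none fell, beside 0.527% and 0.0555% of all genes tested, with a median log2 change of 1.08 against -0.03 for all genes tested. The other 8, *Ikzf4*, *Lrrc32*, *Gpr83*, *Nrp1*, *Itgae*, *Socs2*, *Entpd1* and *Nt5e*, had UMIs in 8 to 17 members each. The list summed to 1693, 1996, 2104 and 2559 CPM in all members, above the other CD4 T cells of each library, and to 2880, 2514, 4611 and 3212 CPM in those with *Foxp3*. *Ctla4*, the inhibitory receptor that competes for CD80 and CD86, was at 318 CPM in Naïve, 442 CPM in ConA+Veh, 714 CPM in ConA+TCDD and 576 CPM in ConA+FICZ members, and at 79.5, 255, 285 and 316 CPM in the other CD4 T cells. The lowest member value was just above the highest of the other cells, and the log2 change was 1.08 ± 0.20 (SE, n = 4; edgeR adjusted p = 0.021). At 1000 UMIs per cell, *Ctla4* had a UMI in 37 of 83 members (44.6%) and in 66 of 287 other CD4 T cells (23.0%), with 1.36% of B cells as the background. Such shares pool libraries of unlike makeup, since Naïve gave 7 of 84 members but 76 of 291 other CD4 T cells, and the values by library are those to compare.

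*Il2ra* was at 52.9, 244, 185 and 226 CPM in the members and at 18.3, 76.7, 82.9 and 145 CPM in the other CD4 T cells, in the same order of libraries. The classes overlapped, because the Naïve members lay below the other CD4 T cells of every ConA library, but each library's members were the higher (log2 change 1.15 ± 0.23, SE, n = 4; edgeR adjusted p = 0.043). With a change about as large, *Il2ra* did not pass by DESeq2 (1.155, adjusted p = 0.056) or by edgeR in cells of at least 2000 UMIs (1.14, 0.077). Of the 4 fits that left out a library, 1 called it, that without Naïve. At equal depth the share of cells with an *Il2ra* UMI was 10 of 83 members (exact interval 5.93% to 21.0%) and 23 of 287 other CD4 T cells (8.01%, 5.15% to 11.8%), with 1.03% of B cells as the background, and the intervals overlap. *Izumo1r*, folate receptor 4, was at 265, 251, 246 and 374 CPM in the members and at 52.0, 148, 115 and 112 CPM in the other cells, without overlap (1.30 ± 0.23; edgeR adjusted p = 0.019). *Capg*, an actin-capping protein, was at 132, 187, 203 and 274 CPM against 73.4, 76.7, 75.7 and 34.0 CPM, also without overlap (1.72 ± 0.32; edgeR adjusted p = 0.024). In the members without *Foxp3*, *Il2ra* was at 32.1, 276, 37.5 and 68.1 CPM, *Izumo1r* at 256, 216, 46.9 and 212 CPM and *Capg* at 96.2, 116, 46.9 and 174 CPM. Each of these in ConA+TCDD, and *Il2ra* in ConA+FICZ, lay below the other CD4 T cells. The members with *Foxp3* lay above them in 4 of 4 libraries for each gene.

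Members of the core list that did not pass were *Tnfrsf18* (GITR, a costimulatory receptor), with a log2 change of 0.84 ± 0.20 (edgeR adjusted p = 0.091), *Tigit*, an inhibitory receptor, with 0.91 ± 0.33 (0.34), and *Il2rb*, the shared beta chain of the IL-2 and IL-15 receptors, with 0.70 ± 0.29 (0.41). *Tnfrsf18* was higher in the members of each library, at 265, 325, 209 and 377 CPM against 110, 161, 173 and 179 CPM.

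*S100a6* had the smallest p of the genes not used by the rule. Its level was 1323 CPM in Naïve, 699.6 CPM in ConA+Veh, 363 CPM in ConA+TCDD and 1108 CPM in ConA+FICZ members and 156, 94.0, 50.8 and 59.5 CPM in the other CD4 T cells, and the classes did not overlap (log2 change 3.20 ± 0.26, SE, n = 4; edgeR adjusted p = 2.9e-05). At 1000 UMIs per cell it had a UMI in 39.8% of members, 10.8% of other CD4 T cells and 7.77% of B cells. In the members without *Foxp3* its level was 1282, 342, 18.8 and 1158 CPM, so that those of ConA+TCDD lay below the other CD4 T cells. Its relatives *S100a11* (1.56 ± 0.26) and *S100a10* (1.42 ± 0.25) rose as well, and so did *Lgals3*, a galactoside-binding lectin (2.88 ± 0.44), *Vim*, the intermediate filament vimentin (2.19 ± 0.34), and *Ahnak*, a large scaffold protein (1.52 ± 0.26). The *Lgals3* UMIs were unevenly spread, 44 of 136 in 1 member, and its level in ConA+Veh was 36.0 CPM in place of 240.3 CPM when the cells with genes of other types were left out, with a log2 change of 2.90 in that fit.

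The remaining rises among the 10 largest were *Rtp4*, an interferon-induced chaperone of receptors (2.39 ± 0.41), *Ecm1*, a secreted matrix protein (2.26 ± 0.32), *Pglyrp1*, a peptidoglycan recognition protein (1.92 ± 0.36), and *Gna15*, a G protein alpha subunit (1.90 ± 0.38). *Ifngr1* (1.53 ± 0.27), *Ifi27l2a*, an interferon-induced gene (1.35 ± 0.22), *Itgb7*, the integrin beta 7 chain (1.19 ± 0.20), and *Ass1*, argininosuccinate synthase (1.13 ± 0.23), completed the 19. When cells with more than 1 UMI of other cell types were left out of both classes, 19 genes rose again and 18 of the 21 calls stayed, while *Ahnak* (adjusted p = 0.066) and *Il2ra* (0.084) did not pass in that edgeR fit and *Rtp4* was too low to test.

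The 2 genes that fell were *Igfbp4*, a secreted binder of insulin-like growth factors found in naive T cells, and *Trbv13-1*, a T cell receptor V segment named here although V segments were outside the naming rule. *Igfbp4* was at 0, 21.2, 24.6 and 154 CPM in the members and at 370.0, 217, 159.6 and 358 CPM in the other CD4 T cells, with a log2 change of -2.27 ± 0.39 (SE, n = 4; edgeR adjusted p = 0.016). *Trbv13-1* had 1 UMI in all members and was at 153, 115, 89.1 and 71.2 CPM in the other CD4 T cells, where 27 of 291 cells carried it (-5.99 ± 0.63; edgeR adjusted p = 0.00026).

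**Figure D3:**
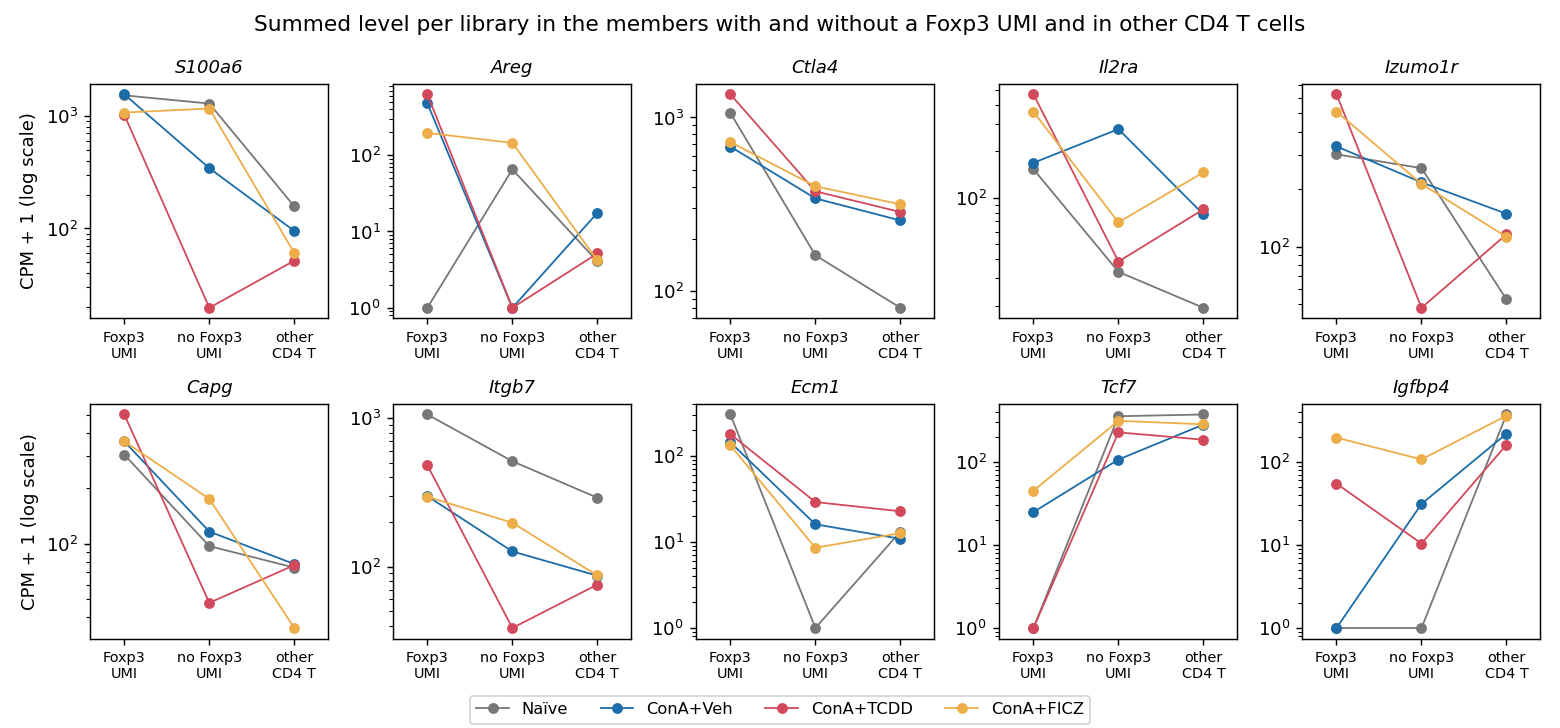
Summed level of 10 genes (vertical axis, CPM + 1 on a log scale with its own range in each panel) in the members with a Foxp3 UMI, the members without one and the other CD4 T cells (horizontal axis), with 1 line per library and no error bars. S100a6 in the ConA+TCDD library was at 1019 CPM with and 18.8 CPM without a Foxp3 UMI, and Tcf7 was at 0 to 43.9 CPM in the members with a Foxp3 UMI and at 105 CPM or more in those without.

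The members with and without a *Foxp3* UMI differed in part. Against the other CD4 T cells, 106 of 2959 genes rose (3.58%) and 24 fell (0.811%) in the members with *Foxp3* by edgeR, while DESeq2 called 44 and 14. Of the 106 rises by edgeR, 75 were higher in all 4 libraries. The edgeR count is not like for like with that of all members, since its prior degrees of freedom were infinite here and 9.77 there. In the members without *Foxp3*, 0 of 3126 genes rose and 2 fell by edgeR, with 122 at an unadjusted p under 0.05. The difference between these counts is no test of a difference between both kinds of member. Leaving out 1 library at a time left 90, 34, 34 and 46 rises and 7, 6, 4 and 12 falls, in the usual order of libraries. Of the 7 core genes tested, 6 rose in the members with *Foxp3* by edgeR, with a median log2 change of 1.62 against -0.13 for all genes, among them *Tnfrsf18* (1.36 ± 0.31, adjusted p = 0.0011) and *Il2rb* (adjusted p = 0.038). *Tnfrsf9* (4-1BB, a costimulatory receptor of activated T cells) rose too, by 1.76 ± 0.35 (edgeR adjusted p = 6.3e-05), having been at 0, 250.2, 268 and 276 CPM in these members and 15.3, 56.1, 62.2 and 105 CPM in the other CD4 T cells.

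Both kinds of member were also compared directly, a comparison added after the data had been seen. Of 1365 genes tested by edgeR with the library as a block, 3 were higher (0.220%) and 1 lower (0.0733%) in the members with *Foxp3*, with 138 at an unadjusted p under 0.05, and the called genes are named here for their small number. *Tcf7*, the transcription factor TCF-1 of naive and memory T cells, was at 0, 23.8, 0 and 43.9 CPM in the members with *Foxp3* and at 353, 105, 225 and 310.3 CPM in those without, with no overlap (log2 change -3.10 ± 0.56, SE, n = 4; edgeR adjusted p = 0.028). The higher genes were *Ecm1* (3.26 ± 0.54), *Ifi27l2a* (1.85 ± 0.35) and *Ighm*, the constant region of IgM (2.37 ± 0.45), which was at 909.5, 381, 161 and 157 CPM with and 224, 30.1, 46.9 and 37.8 CPM without *Foxp3*. *Ighm* is a B cell gene and is also on the list of markers of other cell types; its part in that comparison was not tested. *Ctla4* was at 1061, 679, 1358 and 721 CPM with and 160, 342, 375 and 401 CPM without *Foxp3* (1.32 ± 0.34; edgeR adjusted p = 0.15).

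Other gene groups were described by the same fit of all members against other CD4 T cells, in which 0.527% of all genes tested rose and 0.0555% fell. Of the 18 genes of effector and tissue regulatory T cells, 8 were tested and none passed, though all 8 had a positive log2 change (median 0.48), *Gata3* with 1.07 ± 0.32 (edgeR adjusted p = 0.22) and *Tnfrsf9* with 1.27 ± 0.30 (0.083) being the largest. Among 9 suppressive mediators, 4 were tested and *Areg* alone rose, while *Tgfb1* (0.23 ± 0.26), *Gzmb*, the protease granzyme B (0.78 ± 0.54), and *Lag3*, an inhibitory receptor (-0.67 ± 0.30), did not pass. *Il10* had UMIs in 7 members and *Ebi3* in 3, and *Il12a* was at 0 in every library. Of 15 effector cytokines and their regulators, 3 were tested and none passed, namely *Il4*, *Bhlhe40* and *Cd40lg*, the CD40 ligand of helper T cells (-1.51 ± 0.44; edgeR adjusted p = 0.21). *Il2*, *Il5*, *Il17a*, *Il17f* and *Il22* were at 0 in the members, where 3 counts over all 4 libraries make 3.87 CPM, and *Il2* was at 3.06, 63.5, 5.18 and 8.51 CPM in the other CD4 T cells.

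Of 11 genes of naive T cells and lymph node homing, 9 were tested and *Igfbp4* alone fell, with a median of -0.58. *Ccr7*, the receptor that guides T cells to lymph nodes, was at 52.9, 481, 585 and 487 CPM in the members and 517, 790, 834 and 768 CPM in the other CD4 T cells (edgeR log2 change -0.87 ± 0.27, adjusted p = 0.24). Of 16 migration genes, 10 were tested and *Itgb7* alone rose (median 0.72). None of 14 genes tested on the T cell receptor response list passed (median 0.38), nor any of 16 cell cycle genes (0.41), 10 interferon response genes (0.69), 9 T cell receptor constant and signalling genes (0.03) or the 5 genes that the study names for this cell type (-0.15). The study chose those 5 genes on these libraries, so they are not independent evidence of a direction. The IL-2 and STAT5 list had 1 rise in 13 tested, *Il2ra* (median 0.04). In the *Foxp3* members alone, where 3.58% of all genes tested rose and 0.811% fell in a fit that is not like for like, 4 of 8 interferon response genes rose by edgeR (median 1.12), *Ifitm3*, *Igtp* and *Zbp1* among them. Of 9 naive and homing genes, 3 rose, among them *Il7r* (the IL-7 receptor) and *Klf2*, while *Tcf7* and *Igfbp4* fell. The T cell receptor response list had 3 rises in 13, the IL-2 and STAT5 list 3 in 9 and the migration list 2 in 9, and 1 of 14 cell cycle genes fell. Both B and plasma cell markers tested, *Ighm* and *Cd74*, rose in the same fit. With cells of at most 1 UMI of other cell types, 98 genes rose and 12 fell in the *Foxp3* members, in place of 106 and 24. The AhR list had *Lfng* as its single gene with enough UMIs, which did not pass (0.71 ± 0.32).

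The third question was how the members differed between libraries, pooled values having been given above. Genes were compared on log2 of the ratio of CPM + 50, among genes with at least 30 UMIs in both libraries together, without a test. For ConA+Veh over Naïve, 13.9% of 1552 genes were higher and 5.73% lower by at least 2-fold, with only 7 Naïve members behind the comparison. For ConA+TCDD over ConA+Veh, 0.148% of 2027 genes were higher and 3.75% lower, and for ConA+FICZ over ConA+Veh 0.199% of 2513 were higher and 1.95% lower. The last pair of comparisons share the ConA+Veh library. In the *Foxp3* members alone, 100 of the same 2027 genes were higher and 174 lower in ConA+TCDD, and 89 of 2513 were higher and 123 lower in ConA+FICZ. For ConA+Veh over Naïve, with 3 Naïve cells, 624 of 1552 were higher and 178 lower in the *Foxp3* members. These cells summed to only 6597, 83927, 55959 and 159397 UMIs, while genes entered by their UMIs in all members. Counting error at such depth widens ratios in both directions, so these counts cannot be set against those of all members.

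Granzyme B, surface protein Ly6a and metabolic enzymes were among the 8 highest-ranked genes in ConA+Veh over Naïve. *Gzmb* had no UMI in the 7 Naïve members and 317 UMIs in 14 ConA+Veh members (1120.1 CPM), at least 14.1-fold higher against a floor of 3 counts in Naïve, and stood at 178 CPM in ConA+TCDD and 202 CPM in ConA+FICZ. *Ly6a* (Sca-1), an interferon-responsive surface protein, was at 106 CPM in Naïve and 2198, 1255 and 1749 CPM after ConA, so that ConA+Veh exceeded Naïve by 4.38 on the log2 scale (3.01 to 6.26) in the members and by 1.13 (0.95 to 1.32) in the other CD4 T cells. *Tpi1*, a glycolytic enzyme, was at 52.9 and 1049 CPM (4.31, 2.44 to 7.36), and *Hspd1*, a mitochondrial chaperonin, at 52.9 and 767 CPM (3.86, 1.99 to 6.91), the Naïve value being 2 UMIs for each. *Plac8*, *Impdh2*, which makes guanine nucleotides, and *Ero1l*, an oxidase of the endoplasmic reticulum, were at 0 in Naïve and at least 7.52-fold, 4.85-fold and 4.76-fold higher in ConA+Veh. *Ero1l* rested on few cells, with 77 of its 107 UMIs in 1 member, and its value on the CPM + 50 scale was 0.56 in *Foxp3* members and 0.77 in members with a *Cd4* UMI, in place of 3.10. *Gzma* was at 781 CPM, but 204 of its 221 UMIs lay in 1 cell, and without the cells with genes of other types its value on the CPM + 50 scale dropped from 4.05 to 0.57.

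Lower in ConA+Veh than in Naïve were *Lgals1* (galectin-1; 632 against 3837 CPM), *Crip1* (806 against 4154 CPM), *S100a10* (551 against 2805 CPM), *S100a11* (357 against 1614 CPM), *Capns1*, a calpain subunit (91.9 against 503 CPM), *Lsp1*, a leukocyte actin-binding protein (279 against 1164 CPM), and *Klf2*, a factor of resting T cells (124 against 556 CPM). *Trbc2* was at 120.1 against 820.3 CPM, but its sequence is nearly that of *Trbc1*, so its counts are uncertain. *Klf2* was lower by more in the other CD4 T cells, with a log2 ratio of -3.07 (-3.39 to -2.76) against -2.17 (-2.99 to -1.31) in the members, whereas *Lgals1* went the opposite way there (0.59, 0.30 to 0.89). The Naïve UMIs of *Lgals1* and *Crip1* came from 5 cells each, the largest share being 88 of 145 and 78 of 157 UMIs in 1 cell. With *Foxp3* members alone, 3 of them in Naïve, *S100a11* was higher in ConA+Veh than in Naïve (0.97 on the CPM + 50 scale), and the others but *Trbc2* were lower by less, *Lgals1* moving from -2.51 to -0.48, *Crip1* from -2.30 to -1.21, *S100a10* from -2.25 to -1.39, *Capns1* from -1.96 to -1.39, *Lsp1* from -1.88 to -1.29 and *Klf2* from -1.80 to -1.27. The Naïve *S100a11* value there, 303 CPM of 6597 UMIs, lay under the floor of 3 counts. With the mean of each member's CPM in place of the summed counts, so that deep cells weigh no more than shallow ones, *Lgals1* was at -1.23, *Crip1* at -1.09, *S100a10* at -1.25, *S100a11* at -0.85, *Capns1* at -1.27, *Lsp1* at -0.91, *Trbc2* at -1.69 and *Klf2* at -1.73.

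**Figure D4:**
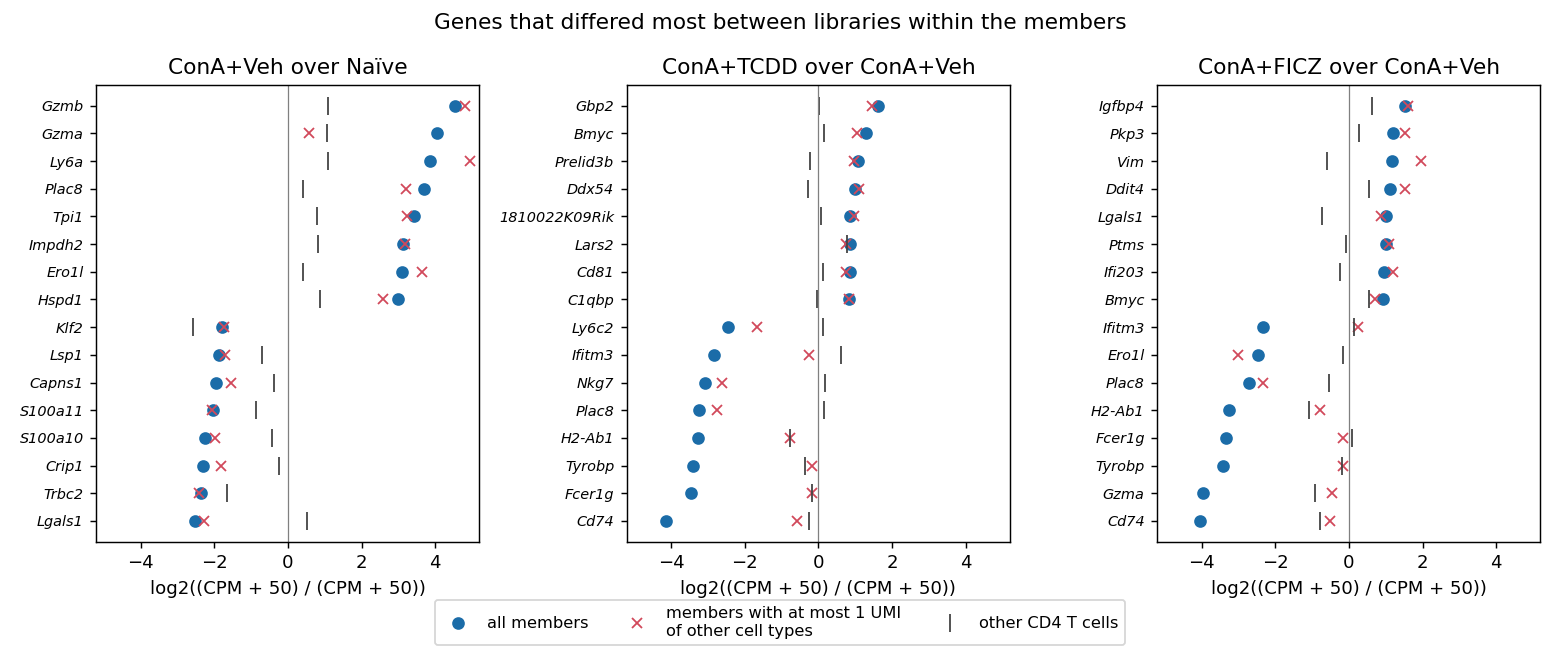
Genes ranked highest and lowest in the members (rows) for 3 comparisons between libraries, on log2 of the ratio of CPM + 50 (horizontal axis), for all members (circles), members with at most 1 UMI of other cell types (crosses) and other CD4 T cells (bars); no error is drawn, since each library is 1 sample. In both comparisons with ConA+Veh, Cd74, Tyrobp, Fcer1g and H2-Ab1 lie at -3.27 or lower in all members and move to between -0.78 and -0.16 without the cells that carry genes of other types, while Plac8 moves from -3.24 to -2.74 and from -2.72 to -2.32. Tyrobp and Fcer1g are among the genes by which those cells were chosen, so their move was fixed by that choice.

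Between ConA+TCDD and ConA+Veh, the 8 lowest-ranked genes included 2 MHC class II genes and 2 genes of the myeloid marker list. *Cd74*, the invariant chain of MHC class II, was at 43.1 CPM in ConA+TCDD and 1579 CPM in ConA+Veh, 364 of whose 447 UMIs lay in 1 cell. *Fcer1g* and *Tyrobp*, adaptors of myeloid and NK cell receptors, and *H2-Ab1*, an MHC class II chain, had no UMI in ConA+TCDD members and were at least 26.8-fold, 26.0-fold and 23.4-fold lower against a floor of 3 counts. On the CPM + 50 scale, *Cd74*, *Fcer1g*, *Tyrobp* and *H2-Ab1* moved from -4.13, -3.45, -3.41 and -3.27 to -0.59, -0.16, -0.16 and -0.78 when the cells with genes of other types were left out, and *Ifitm3*, an interferon-induced membrane protein, moved from -2.84 to -0.25. *Fcer1g* and *Tyrobp* are among the genes by which those cells were chosen, so their move was fixed by that choice. *Plac8*, a small protein of leukocytes, *Nkg7*, a granule protein of cytotoxic cells, and *Ly6c2* moved from -3.24, -3.07 and -2.45 to -2.74, -2.61 and -1.66 without those cells, and so were still lower by more than 2-fold. *Plac8* was at 18.5 CPM from 1 member in ConA+TCDD and at 597 CPM from 13 members in ConA+Veh, while the other CD4 T cells differed by a log2 ratio of 0.19 (-0.07 to 0.46).

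Higher in ConA+TCDD was *Gbp2*, a GTPase induced by interferon gamma, at 203 CPM in 9 members against 31.8 CPM in 7 (log2 ratio 2.67, 1.58 to 3.92), with 0.02 (-0.67 to 0.71) in the other CD4 T cells. Of its 33 UMIs, 16 lay in 1 member, and in the members with *Foxp3* it was at 518 CPM in ConA+TCDD and 35.7 CPM in ConA+Veh. *Bmyc*, a relative of *Myc*, was at 166 against 38.9 CPM (2.10, 1.04 to 3.26), and *Prelid3b*, *Ddx54*, *1810022K09Rik*, *Lars2*, *Cd81* and *C1qbp* were higher by 0.83 to 1.07 on the CPM + 50 scale. *Ctla4* was at 714 against 442 CPM (0.69, 0.31 to 1.07), or 0.63 on the CPM + 50 scale and 0.19 without the cells with genes of other types, and *Il2ra* at 185 against 244 CPM in all members (-0.40, -1.07 to 0.24) but at 465 against 167 CPM in those with *Foxp3*. *Il1rl1* was at 92.3 CPM in ConA+TCDD and 14.1 CPM in ConA+Veh.

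Between ConA+FICZ and ConA+Veh, *Igfbp4* was at 154 against 21.2 CPM (log2 ratio 2.86, 1.63 to 4.38), with 21 of its 45 UMIs in 1 member, and *Vim* at 1691 against 728 CPM (1.22, 0.98 to 1.46), with -0.75 (-1.03 to -0.47) in the other CD4 T cells. *Lgals1* was at 1328 against 632 CPM (1.07, 0.81 to 1.33), again opposite to the other CD4 T cells (-0.83, -1.04 to -0.62). In the *Foxp3* members alone, *Vim* and *Lgals1* were at 0.17 and 0.09 on the CPM + 50 scale, and with the mean of each member's CPM at 0.51 and 0.49, in place of 1.16 and 1.01. *Pkp3*, a plakophilin, *Ddit4*, an inhibitor of mTOR signalling, *Ptms*, *Ifi203* and *Bmyc* were higher by 0.94 to 1.19 on that scale. With *Foxp3* members alone, *Ddit4* was at 0.33, *Ptms* at 0.55 and *Ifi203* at 0.59, while *Pkp3* was at 1.2 and *Bmyc* at 0.79. The lower genes were again *Cd74* (48.0 CPM), *Tyrobp* and *H2-Ab1* (0, at least 46.7-fold and 41.9-fold lower), *Fcer1g* and *Gzma* (3.43 CPM each), which moved to between -0.78 and -0.16 on the CPM + 50 scale without the cells with genes of other types. For *Tyrobp* and *Fcer1g* this move was again fixed by the choice of those cells. *Plac8* (48.0 against 597 CPM) and *Ero1l* (27.4 against 378 CPM) moved from -2.72 and -2.47 to -2.32 and -3.01, though *Ero1l* was at -0.10 in the *Foxp3* members.

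Cell cycle genes differed between libraries in the members with *Foxp3*. The list of 16 genes summed to 3335, 9258, 2252 and 6173 CPM in the *Foxp3* members, in the usual order of libraries, and to 2914, 8468, 7577 and 4628 CPM in the other CD4 T cells. For ConA+TCDD over ConA+Veh, 13 of 15 of these genes were lower by at least 2-fold in the *Foxp3* members, against 174 of all 2027 genes, and 1 of 15 in all members. *Mki67*, the usual marker of dividing cells, had UMIs in 5 of 9 ConA+Veh, 1 of 15 ConA+TCDD and 5 of 17 ConA+FICZ members with *Foxp3*, whose median depths were 10066, 2390 and 8836 UMIs. Of the 9 ConA+Veh cells, 3 carried genes of other types, and the part of these cells and of depth in the difference was not tested. In the members without *Foxp3* the list summed to 10418, 7987, 8305 and 10589 CPM.

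The 5 genes that the study names for regulatory T cells were each measured in most members but *Mt1*, a metallothionein, which had UMIs in 23. *Rbm3*, an RNA-binding protein induced by cold, was at 979 CPM in Naïve, 516 CPM in ConA+Veh, 769 CPM in ConA+TCDD and 768 CPM in ConA+FICZ, and ConA+TCDD exceeded ConA+Veh by 0.58 on the log2 scale (0.22 to 0.93), against 0.05 (-0.10 to 0.20) in the other CD4 T cells. *Aldoa*, the glycolytic enzyme aldolase A, was at 397, 1647, 775 and 854 CPM in the same order, or -1.09 (-1.38 to -0.80) for ConA+TCDD over ConA+Veh. *Mt1* was at 26.5, 145, 80.0 and 196 CPM (-0.86, -1.88 to 0.07), *Srgn*, the granule proteoglycan serglycin, at 953, 1682, 1612 and 1307 CPM (-0.06, -0.28 to 0.16), and *Cd52*, a leukocyte surface glycoprotein, at 1799, 1936, 1298 and 1756 CPM (-0.58, -0.81 to -0.35). The intervals of *Mt1* and *Srgn* for ConA+TCDD over ConA+Veh spanned 0. In the *Foxp3* members the same 5 values on the CPM + 50 scale were 0.41, -0.72, 0.08, 0.30 and -0.16.

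Little RNA of the AhR pathway was detected in the members, its 11 genes summing to 185, 117, 55.4 and 117 CPM. *Lfng*, a glycosyltransferase that modifies Notch receptors, was the most abundant of them in each library, at 79.4, 42.4, 24.6 and 65.2 CPM in the members and 82.6, 23.1, 14.5 and 31.9 CPM in the other CD4 T cells. In the *Foxp3* members it was at 0, 11.9, 71.5 and 75.3 CPM, the ConA+Veh value being 1 UMI, so that ConA+FICZ exceeded ConA+Veh by 1.02 and ConA+TCDD by 0.97 on the CPM + 50 scale. *Cyp1a1*, *Cyp1b1*, *Ahrr*, *Ugt1a6a*, *Ido1* and *Aldh3a1* were at 0 in the members of every library, where 3 counts make 79.4 CPM in Naïve, 10.6 CPM in ConA+Veh, 18.5 CPM in ConA+TCDD and 10.3 CPM in ConA+FICZ, so that lower levels were not detectable at this depth. *Ahr* itself was at 26.5, 24.7, 18.5 and 24.0 CPM, *Tiparp*, a target that limits the receptor, at 52.9, 14.1, 12.3 and 13.7 CPM, and *Arnt*, the partner of the receptor, at 0, 35.3, 0 and 13.7 CPM. *Nqo1* had UMIs in 1 member, of the Naïve library. *Il4* was at 198 CPM in 5 ConA+Veh members, 0 in Naïve and ConA+TCDD and 3.43 CPM in ConA+FICZ, and *Ifng* at 70.7 CPM in ConA+Veh, 12.3 CPM in ConA+TCDD and 0 in the other libraries.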

How the data were processed

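Liver mononuclear cells of 4 groups were measured by the 10x Genomics 5′ assay. The authors aligned reads to mm10 and counted raw UMIs with Cell Ranger 3.0.2, and deposited the counts of each gene in each cell with no normalization for the barcodes kept (bcl2fastq is also named in the submitters' processing notes). Genes were summed by symbol (31053 rows, 31017 symbols). Members, gene lists, lists of markers and comparisons were chosen with earlier results of these data known.

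UMIs were summed per library and class and scaled to CPM, with exact Poisson intervals for levels, exact (Clopper-Pearson) intervals for shares and exact conditional binomial intervals for ratios, all at 95%, and with 3 counts as the floor. UMIs of 1 cell are not independent, so intervals cover counting error only. Members against other CD4 T cells were fitted on 8 sums with edgeR 4.0.16 in R 4.3.3 (TMM, filterByExpr, glmQLFit and glmQLFTest, library as a block, Benjamini-Hochberg over all genes tested, threshold 0.05). The library pairs the classes, since both come from the same animals. Between libraries there was 1 library per group and no test. Thinning used seed 1. Doublets were not called. The fit was tested on simulated data with 3624 genes, where it recovered 100% of 4-fold rises, 94% of 4-fold falls, 76% of 2-fold rises and 36% of 2-fold falls with 3 false calls. The simulation changed only the more abundant genes, and it used a single dispersion of 0.0368 and the same base levels in all libraries. The data are less even than that, so these rates do not measure how many true changes the reported fit found.

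Named are the genes of the lists given, the 10 largest changes of the fit that go the same way in 4 libraries, the 8 largest rises and falls of each comparison between libraries (at least 30 UMIs and 5 members), leaving out V segments and mitochondrial genes, and, outside this rule and after their values were seen, *Trbv13-1*, *Ighm*, *Mki67* and the other genes that completed short counts. Alternatives were DESeq2 1.42.0, no TMM, no filter, no block, other comparison cells, other definitions of members, cells of at least 2000 UMIs, and each library left out. Tables and intervals were made in Python 3.11.15 with scipy 1.17.1, numpy 2.4.6 and pandas 2.3.3, and plots with matplotlib 3.10.9. Results for some listed genes are not reported here.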

Additional observations from a re-analysis of the deposited data

Results flagged for a closer look

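Cells with a *Foxp3* UMI, a *Cd3* UMI and a CD8 gene, which the rule leaves out, numbered 5 in ConA+Veh, against 0 in Naïve, 1 in ConA+TCDD and 3 in ConA+FICZ. They drew attention because they lie outside the comparisons and exceed the count of 3 cells that a count of 0 allows, a criterion chosen after the data had been seen. The 5 cells were 1.40% of 356 ConA+Veh cells with *Cd3* and CD8 UMIs (exact binomial interval 0.458% to 3.25%), held 64 UMIs of the CD8 genes, 9 of *Foxp3* and 39 of *Ctla4*, and had a median depth of 6911 UMIs. In ConA+FICZ the 3 cells held 3 CD8 UMIs in all. The share was 1.20% of 249 such cells in ConA+FICZ (0.249% to 3.48%) and 0.394% of 254 in ConA+TCDD (0.00997% to 2.17%). In Naïve it was 0 of 170, with an exact upper limit of 2.15%. These intervals all overlap that of ConA+Veh.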

How the results depend on the processing

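The numbers of genes higher and lower in the members than in other CD4 T cells, 19 and 2, became 26 and 2 with DESeq2, 28 and 2 without TMM, 60 and 36 with no filter on low counts, and 22 and 33 against all other cells of the gate, where 10 of the 21 genes were still called. They were 106 and 24 with *Foxp3* members alone, 0 and 2 with members without *Foxp3*, 0 and 2 with members that held a *Cd4* UMI (edgeR, 167 at an unadjusted p under 0.05, and 122 for members without *Foxp3*), and 12 and 2 with cells of at least 2000 UMIs. Without the library as a replicate block, 6 genes were higher and 1 lower, and 7 of the 21 genes were still called. Leaving out a library gave 3 to 69 genes higher (69 without Naïve, 4 without ConA+Veh, 13 without ConA+TCDD and 3 without ConA+FICZ) and 1 to 7 lower, and the causes were not tested. At an unadjusted p under 0.05, 371 genes passed in the reported fit.

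The log2 ratio of shares became 3.09 for ConA+Veh over Naïve after thinning to 1000 UMIs and 1.30 for ConA+TCDD over ConA+Veh with *Foxp3* members. Between libraries, *S100a11* for ConA+Veh over Naïve turned to 0.97 with *Foxp3* members, where the Naïve value lay under the floor of 3 counts. With members that held a *Cd4* UMI, *Lars2* for ConA+TCDD over ConA+Veh turned to -1.01, and for ConA+FICZ over ConA+Veh *Bmyc* turned to -0.0047 and *Ifitm3* to 0.23. *Ifitm3* was at 0.25 there without the cells with genes of other types. The depth limits the Naïve values most, with 7 members and 37792 UMIs.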
